A study of Mus musculus with 12 samples.

Results

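The miR-15/16 family is a set of mature microRNAs (miRNAs) that carry the same seed, the stretch of bases 2 to 8 that pairs with target mRNAs. The 5 members described here, mmu-miR-15a-5p, mmu-miR-15b-5p, mmu-miR-16-5p, mmu-miR-195a-5p and mmu-miR-322-5p (written below without the prefix for mouse), were taken by name from a small RNA sequencing table of 1900 mature mouse miRNAs, of which 877 were above 0 in at least 1 library. The 12 libraries came from gastrocnemius, the main calf muscle, of male C57BL/6 mice. Of these, 6 were young (6 months) and 6 were aged (24 months), all untreated. The deposited value is the log2 of FPKM, a fragment count divided by the miRNA's length and by the library's mapped fragments.

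miRNAs load into an Argonaute protein and lower the translation or stability of mRNAs whose 3' untranslated regions match the seed. Family members are best known as brakes on cell division: their targets include cyclins D and E, the kinases Cdk6 and Chek1, and the survival factor Bcl2. Muscle adds a setting of its own, since miR-195 goes up after birth in the heart as cardiac muscle cells stop dividing, and miR-322 goes up as cultured myoblasts leave the cell cycle and differentiate. Neither mRNA targets nor cell division were analysed here.

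The mature sequences are shown because the family is defined by them. They are from RefSeq (GRCm38.p6), written 5′ to 3′ with bases 2 to 8 in capitals. A sixth abundant miRNA with this seed, miR-497a-5p (named miR-497-5p in the table), is given last for comparison.
miR-16-5p: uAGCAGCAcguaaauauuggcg
miR-195a-5p: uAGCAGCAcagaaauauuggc
miR-15a-5p: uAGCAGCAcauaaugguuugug
miR-15b-5p: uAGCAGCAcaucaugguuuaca
miR-322-5p: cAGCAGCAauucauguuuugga
miR-497a-5p: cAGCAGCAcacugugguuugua

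The capitals are identical in every line, and the members part company in the 3′ portion. With positions counted from 1 at the 5′ end, miR-16-5p and miR-195a-5p differed at 2 of the 21 bases they share (G10A and U11G). miR-15a-5p and miR-15b-5p differed at 4 of 22 (A12C, G20A, U21C and G22A). miR-16-5p and miR-322-5p were farther apart, with 10 substitutions over 22 bases. Of the 1605 miRNAs in the table that had a RefSeq sequence, 10 (0.623%) carried this seed. Beside the 5 members and miR-497a-5p these were miR-195b, miR-6342, miR-6353 and miR-6419, each with at most 1 read in all 12 libraries.

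The members come from 6 hairpins at 4 loci. Mir15a (chr14:61632027-61632110) and Mir16-1 (chr14:61631880-61631972) lie 54 bases apart on the minus strand within Dleu2, a long noncoding RNA gene. Mir15a is intronic there and Mir16-1 overlaps an exon. Mir15b (chr3:69009772-69009835) and Mir16-2 (chr3:69009902-69009996) lie 66 bases apart on the plus strand in an intron of Smc4, which encodes a condensin subunit. Mir195a (chr11:70235042-70235135, plus strand) stands 241 bases from Mir497. Mir322 (chrX:53054255-53054349, minus strand) stands 200 bases from Mir503. The annotation placed no gene other than miRNA genes over the chromosome 11 and X hairpins. Coordinates are of GRCm38, the assembly that the processing notes name as mm10.

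Read numbers differed widely between libraries and members. From the steps of the low values, libraries were estimated to hold 198336 to 6239342 miRNA reads in young muscle and 123042 to 7515016 in aged muscle, a 61.1-fold range. Most young libraries were shallower than most aged ones. Apart from young replicate 6, young libraries held at most 550277 reads. Apart from aged replicate 5, aged libraries held at least 1244484, so depth and age are partly confounded. miR-16-5p rested on 234 to 14613 reads in a library, whereas miR-15b-5p rested on 1 to 84 and was above 3 reads in 8 of 12 libraries. Aged replicate 5 (1 read of miR-15b-5p) and aged replicate 6 (3 reads) were among the 4 libraries at or below 3. Of 8 skeletal muscle miRNAs, 6 were above 0 in every library, and the list held on average 16.2% of summed FPKM in young and 14.7% in aged muscle. Of the 8, limma called 1 between the ages, miR-206-3p, at 812 ± 637 FPKM in young and 1981 ± 480 FPKM in aged muscle (SD, n = 6 each; adjusted p = 0.0296), a call lost in 13 of 24 alternative fits.

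**Figure D1:**
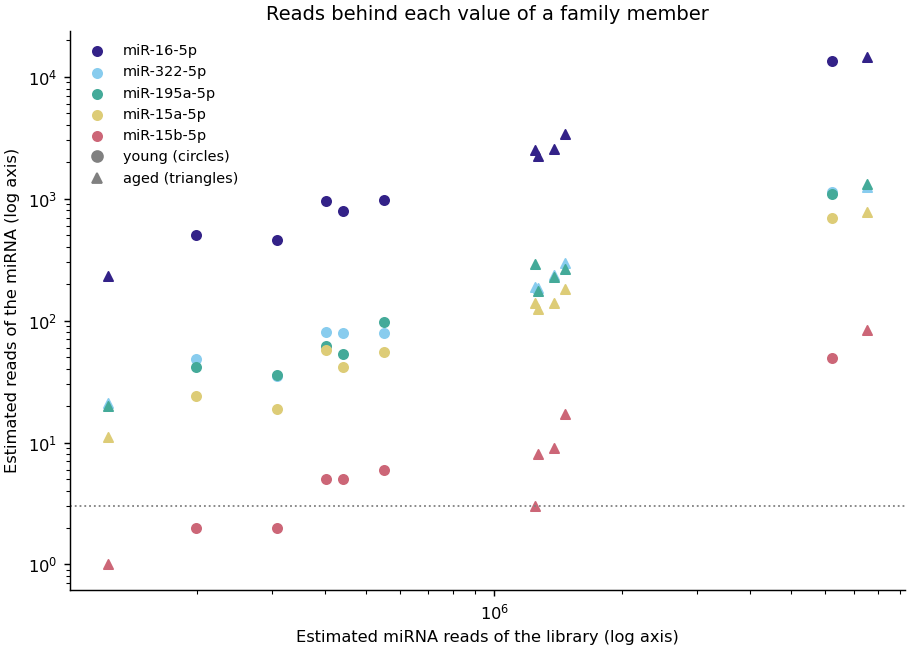
Estimated reads of each member (y, log axis) against the estimated miRNA reads of its library (x, log axis), with young libraries as circles, aged as triangles and a dotted line at 3 reads. miR-15b-5p sits at or under the line in 4 libraries, and miR-16-5p has at least 234 reads in all 12.

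miR-16-5p, the member most often studied as a cell-cycle brake, was by far the most abundant by FPKM. It ranked 29th of all miRNAs by mean FPKM. Its level in young muscle was 69379 FPKM at the lowest, 85565 at the median and 107861 at the highest. Aged muscle gave 83532, 86029 and 92682 FPKM for the same 3 points. All aged libraries thus fell inside the young range, and the means were 86714 ± 15937 (SD, n = 6) and 86857 ± 3327 FPKM (SD, n = 6). The aged to young fold was 1.02 (95% interval 0.859 to 1.20), a log2 difference of 0.02 ± 0.12 (SE) with an adjusted p of 0.969 in limma. This estimate was so near 0 that its sign turned under quantile normalization (-0.07), median-of-ratios scaling and a read-based fit. The sign also turned when only the higher of its 2 rows was kept in each library.

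Each of the 2 hairpins of miR-16-5p has its own row in the table, and the mature sequence is the same in both. The rows differed by at most 0.21 on the log2 scale, with a median absolute difference of 0.03, so they were added. The sources used here do not say how reads that match both hairpins were shared out, and counting them at each would inflate the sum.

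miR-322-5p, an X-linked member made beside miR-503, ranked 86th. Young libraries held 5330 FPKM at the lowest, 7805 at the median and 10298 at the highest, and aged libraries 6427, 7570 and 8135. The aged values again sat inside the young range. The means were 7596 ± 1792 and 7402 ± 684 FPKM (SD, n = 6 each), a fold of 0.994 (95% interval 0.795 to 1.24; limma adjusted p = 0.990).

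miR-195a-5p, the member that differs least in sequence from miR-16-5p, ranked 83rd. It ran from 5442 through a median of 7169 to 9476 FPKM in young muscle and from 6841 through 7886 to 10514 FPKM in aged muscle. Of the aged libraries, 5 of 6 stood above the young median, as was also the case for miR-15a-5p, and the groups overlapped. Its mean was 7153 ± 1498 FPKM in young and 8124 ± 1250 FPKM in aged muscle (SD, n = 6 each). The fold of 1.14 (95% interval 0.918 to 1.43) did not pass the test (limma adjusted p = 0.640).

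miR-15a-5p, the Dleu2 partner of miR-16-5p, ranked 107th. Its young libraries spanned 2896 to 5914 FPKM around a median of 4467, and its aged libraries 4153 to 4973 around a median of 4624. Every aged value lay within the young span, with means of 4498 ± 1042 and 4626 ± 275 FPKM (SD, n = 6 each). The fold was 1.05 (95% interval 0.826 to 1.34; limma adjusted p = 0.908).

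miR-15b-5p, the Smc4 partner, was the rarest member at rank 224. It spanned 304 to 519 FPKM around a median of 438 in young muscle, and 103 to 491 FPKM around a median of 338 in aged muscle. Aged replicate 6 was the lowest of the 12, on 3 reads, and the groups overlapped. Means were 421 ± 83.7 FPKM in young and 338 ± 141 FPKM in aged muscle (SD, n = 6 each). The estimated fold of 0.773 had a 95% interval of 0.422 to 1.42 and missed the threshold (limma adjusted p = 0.760). Without aged replicate 6 the log2 change went from -0.37 to -0.12.

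**Figure D2:**
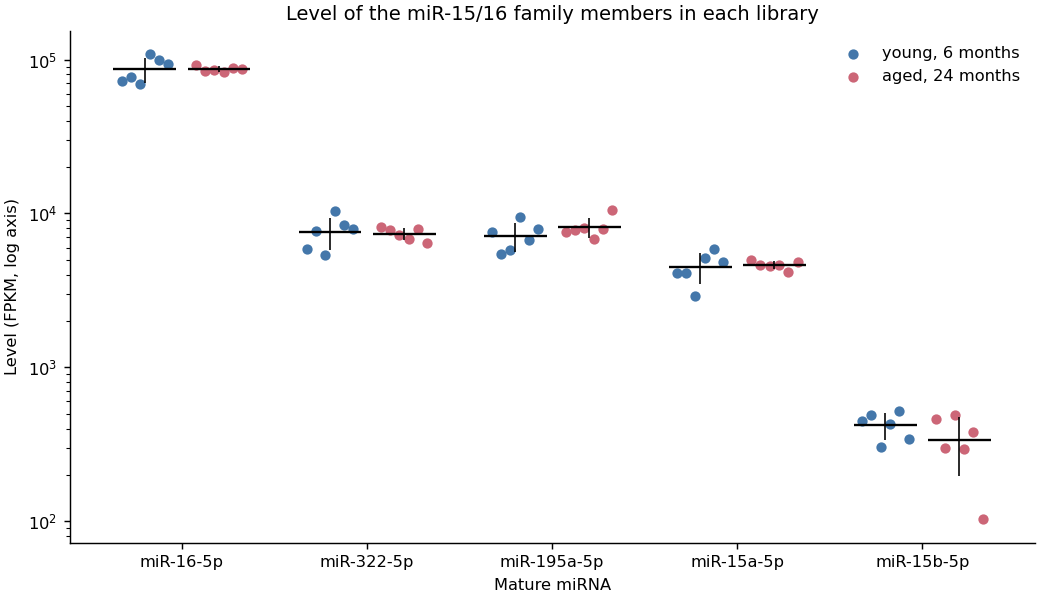
FPKM of each member in every library (y, log axis), with young in blue and aged in red, horizontal lines at the group means and vertical lines of 1 SD each way. The groups overlap for all 5 members, and miR-16-5p has the highest level in all 12 libraries.

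Thus 0 of 5 members passed the threshold, an adjusted p under 0.05 in limma. Among all 482 miRNAs tested (those above 0 in at least 5 of 12 libraries, which all 5 members met), 14 (2.9%) passed it, 3 of them (0.622%) higher and 11 (2.28%) lower in aged muscle. At an unadjusted p under 0.05, limma gave 0 of 5 members against 62 of all tested (12.9%). Ranges of the 2 ages were fully separate for 13 of all tested (2.7%) and for 0 of 5 members. Exact permutation tests of each miRNA called 0 of 482 after adjustment, members included (66 of all tested had an unadjusted p under 0.05). Their smallest possible p is 0.00216 in this design, and the smallest adjusted p was 0.0803. A miRNA could thus pass only if many reached that floor, so this count of 0 says little. The read-based fit (limma voom) called 14, with 0 members. The members' median log2 change was 0.02, beside 0.07 over all tested. The intervals bound the change of miR-16-5p, miR-15a-5p, miR-195a-5p and miR-322-5p to less than 1.43-fold in either direction as fitted, whereas that of miR-15b-5p is wider. In bulk muscle, fewer cells of a type and less RNA per cell cannot be told apart.

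The miRNAs most often seen in blood and vessel cells are given beside these levels, because members of this family are also made there. Summed red blood cell miRNAs (3 of 3 present in every library) ranged from 5828 to 10486 FPKM in young and from 3022 to 10507 FPKM in aged muscle. White blood cell miRNAs (4 of 4 present) ranged from 8449 to 19468 and from 11136 to 24904 FPKM. The endothelial pair reached 307743 to 455685 and 336491 to 382329 FPKM. Limma called 0 of these 9 miRNAs between the ages. Their part in the members' levels was not tested.

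Because all members carry the same seed, their shares of the FPKM of all miRNAs with it, the seed pool, were compared. These are shares of sequenced reads. The numbers of molecules, or of miRNAs loaded into Argonaute, were not measured here. miR-16-5p held 79.9% ± 1.25 of the FPKM of the seed pool in young and 79.6% ± 0.608 in aged muscle (SD, n = 6 each), and stayed between 77.9% and 81.1% in all 12 libraries. This uses the sum of its 2 rows. If reads matching both hairpins were counted at each, this share and its lead over other members given below are too high. miR-322-5p held 6.96% and 6.78%, miR-195a-5p 6.63% and 7.45%, and miR-15a-5p 4.13% and 4.24% on average. miR-497-5p followed with 1.95% ± 0.570 in young and 1.57% ± 0.224 in aged muscle, and miR-15b-5p came last with 0.395% and 0.309%. Over all miRNAs, the 5 members together took 0.250% ± 0.0504 of summed FPKM in young and 0.245% ± 0.0235 in aged muscle (SD, n = 6 each; no test was run on this sum).

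**Figure D3:**
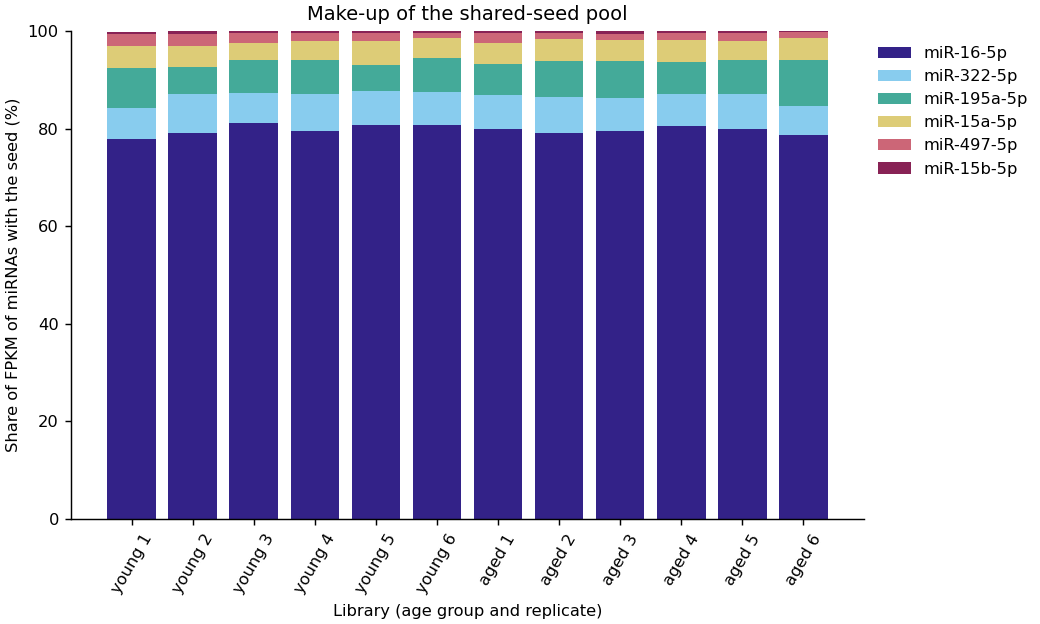
Share of each miRNA in the summed FPKM of miRNAs with the family seed (y, percent), one stacked bar per library (x, 6 young then 6 aged). miR-16-5p, summed from its 2 rows, fills 77.9% to 81.1% of every bar. The widest relative swing is in the thin miR-15b-5p slice, at 0.0934% to 0.501%.

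Within a library, ratios of members do not depend on how libraries were scaled to each other. miR-16-5p exceeded every other member in all 12 libraries, on average 3.52 log2 units above miR-195a-5p and 3.54 above miR-322-5p. The order of miR-195a-5p and miR-322-5p was not fixed, and their log2 ratio ran from -0.50 to 0.71. miR-195a-5p was the higher in 5 libraries, and the 2 were equal in young replicate 6 and aged replicates 2 and 5. miR-15a-5p was below both in all 12 libraries, by 0.74 and 0.72 log2 units on average.

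The pairs that hold miR-15b-5p gave the widest estimates with age: its log2 ratio to miR-195a-5p moved by -0.65 ± 0.44 (SE; exact permutation p = 0.147, adjusted p = 0.424), to miR-16-5p by -0.47 ± 0.36 and to miR-322-5p by -0.44 ± 0.33, and that of miR-15a-5p to miR-15b-5p by 0.52 ± 0.37. Without aged replicate 6 these 4 differences were -0.26, -0.16, -0.17 and 0.20.

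None of the 10 pair ratios passed the two-sided exact permutation test adjusted over the 10 pairs (smallest adjusted p = 0.424), although this design could reach an unadjusted p of 0.00216. The steadiest was miR-16-5p to miR-322-5p, which moved by 0.03 ± 0.07 (SE). miR-15a-5p to miR-16-5p, products of 1 locus in part, moved by 0.05 ± 0.08. The ratio of miR-16-5p to miR-195a-5p went from 3.61 to 3.43, a difference of -0.17 ± 0.13 (exact permutation p = 0.201, adjusted p = 0.424).

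**Figure D4:**
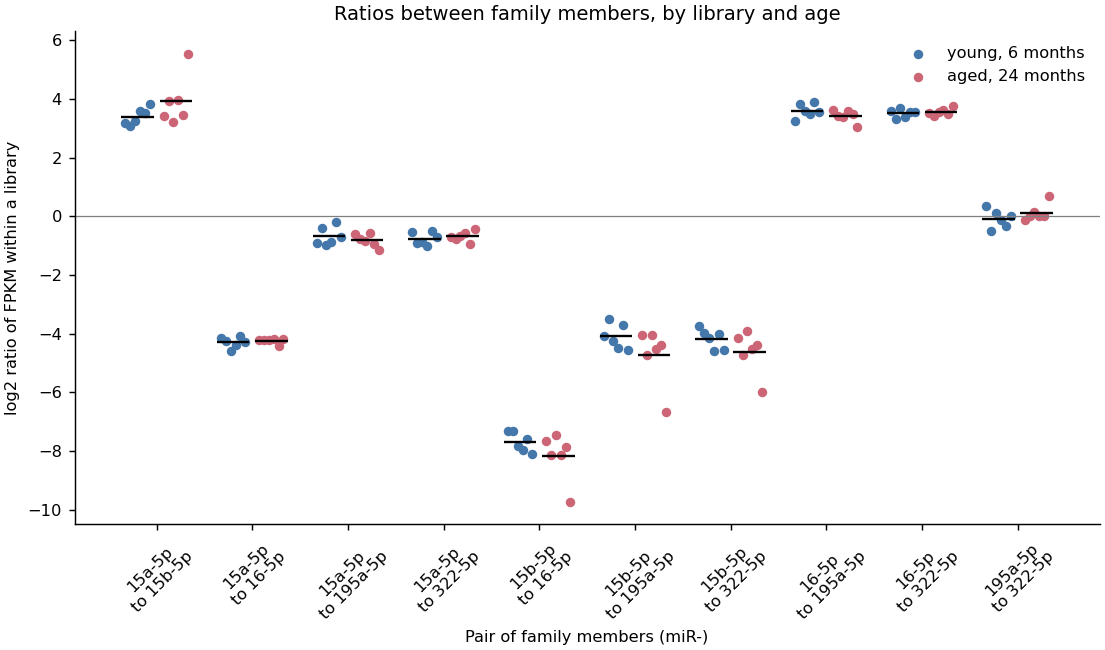
Log2 ratio of FPKM within a library (y) for the 10 pairs of members (x), with young libraries in blue, aged in red and black lines at the group means. The groups overlap for every pair, and aged replicate 6 is the most extreme aged library in the 4 pairs that hold miR-15b-5p.

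The miR-15 and miR-16 hairpins sit in matching pairs on chromosomes 14 and 3, and some of their arms differ in sequence, so their reads can be told apart by locus. Over 12 libraries, miR-15a-5p (chromosome 14) had 2270 estimated reads and miR-15b-5p (chromosome 3) had 191, so 92.2% came from chromosome 14 (exact 95% interval 91.1 to 93.3, counting error only). The share was 92.8% in young and 91.9% in aged muscle. The passenger arms of miR-16 leaned the same way, with 86 reads of miR-16-1-3p from chromosome 14 and 10 of miR-16-2-3p from chromosome 3 (89.6%, exact interval 81.7 to 94.9). The passenger arms of miR-15 did not: miR-15a-3p had 39 reads and miR-15b-3p had 41 (48.8%, exact interval 37.4 to 60.2). Their chromosome 14 share was 63.3% in young (exact interval 43.9 to 80.1) and 40% in aged muscle (26.4 to 54.8), on 30 and 50 reads. Leaving out the 2 deepest libraries gave 93.2%, 94.4% and 43.8% for these 3 shares.

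Each hairpin yields a 5p arm, here the guide, and a 3p arm, here the passenger that is mostly discarded. Reads of 5p for each read of 3p numbered 445 for miR-16, 58.2 for miR-15a, 42.7 for miR-195a, 6.54 for miR-322 and 4.66 for miR-15b. The 5p reads of miR-16 are the sum of 2 rows and carry the limit given above. miR-322-3p, the only passenger above 3 reads in all 12 libraries, ranged from 982 to 2077 FPKM in young and from 826 to 2385 FPKM in aged muscle. The balance of the arms was compared between the ages in limma over 131 hairpins, of which 1 was called (0.763%) and 17 (13.0%) had an unadjusted p under 0.05. The hairpins of the members gave adjusted p from 0.563 to 0.954 and none was called or had an unadjusted p under 0.05. The widest estimate was that of miR-15b, a log2 ratio of 2.34 in young and 1.47 in aged muscle (difference -0.87 ± 0.66 SE, 95% interval -2.32 to 0.58).

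Neighbouring miRNAs also gave no call. Of 6 passenger arms, 5 were tested, and limma called 0. Of 13 other mature miRNAs listed from the members' clusters, 7 were tested and 0 called (fold estimates on either side of 1). The listed miR-195b (chromosome 2) and miR-497b (the strand opposite Mir497) were too low to test. miR-497-5p, made beside miR-195a, was at 1305 to 2539 FPKM in young and 1499 to 2257 FPKM in aged muscle, with 1 of 6 aged libraries above the young median. Its log2 change was -0.23 ± 0.22 (SE; limma adjusted p = 0.700). miR-351-5p, made beside miR-322, was at 2628 to 4012 and 2856 to 4012 FPKM, with a change of 0.08 ± 0.17 (limma adjusted p = 0.908). miR-503-5p, which shares bases 2 to 7 of the seed and is coexpressed with miR-322 in differentiating myoblasts, had 4 reads in all.

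**Figure D5:**
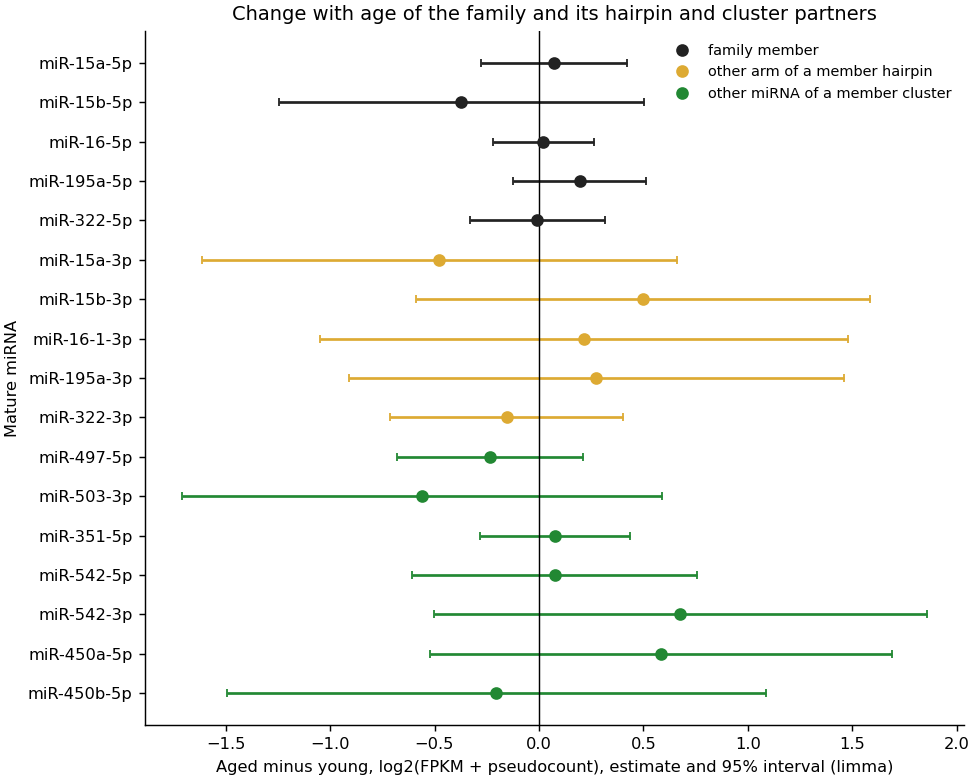
Aged minus young difference of log2(FPKM + pseudocount of 48.2) from limma (x) for the members, the passenger arms and the cluster neighbours that were tested (y), with 95% intervals. Every interval crosses 0, and those of the passenger arms other than miR-322-3p are over 2 log2 units wide.

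For context, other miRNAs known to act on the cell cycle were counted. Of 12 that promote growth, such as miR-17-5p and miR-221-3p, 11 were tested and limma called 0, with a median log2 change of 0.02 (6 estimates above 0, smallest adjusted p = 0.0996). Of 12 that restrain it, such as miR-34a-5p and let-7a-5p, 10 were tested and limma called 0, with a median of 0.26 and all 10 estimates above 0 (smallest adjusted p = 0.0626, miR-34a-5p). Over all 482 tested, 267 estimates were above 0.

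The SD of log2(FPKM + 48.2) over libraries ran from 0.27 to 0.35 among the members in young muscle and from 0.05 to 0.67 in aged muscle. miR-16-5p had an SD of 0.27 log2 units among young and 0.05 among aged libraries. The SDs were 0.35 and 0.09 for miR-15a-5p, and 0.34 and 0.14 for miR-322-5p. miR-15b-5p went the other way, at 0.27 and 0.67, with the low read numbers given above. Of 211 miRNAs with a mean of at least 10 pseudocounts, 151 (71.6%) likewise had the smaller SD in aged muscle. miR-195a-5p had 0.30 in young and 0.21 in aged muscle. After median-of-ratios scaling, the SDs were 0.16 and 0.07 for miR-16-5p, 0.22 and 0.11 for miR-15a-5p, 0.23 and 0.11 for miR-322-5p, 0.28 and 0.28 for miR-195a-5p, and 0.20 and 0.62 for miR-15b-5p. On that scale, 140 of the 211 miRNAs (66.4%) had the smaller SD in aged muscle. These SDs are given without a test. Most young libraries were shallower than most aged ones, and the part of depth in the SDs was not tested.

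Some members varied together across the 12 libraries, which share the scaling of each library. miR-16-5p and miR-322-5p had Pearson's r = 0.883 (permutation p = 0.00024, adjusted p over 10 pairs = 0.0020) and Spearman's rho = 0.883 (permutation p = 0.00026). Within an age, r was 0.927 in young and 0.553 in aged muscle, and it was 0.719 without the 2 libraries farthest from the median and 0.698 after median-of-ratios scaling. miR-15a-5p and miR-16-5p had r = 0.836 (permutation p = 0.0004, adjusted p = 0.0020) and rho = 0.886 (permutation p = 0.00026). Their r was 0.869 in young but 0.236 in aged muscle, 0.818 without the 2 farthest libraries and 0.577 after scaling, so it rested mainly on the young libraries. The pair miR-15a-5p and miR-322-5p had r = 0.720 (permutation p = 0.0105, adjusted p = 0.0350) and rho = 0.754 (permutation p = 0.00561), yet r was 0.829 in young and -0.21 in aged muscle, so the relation did not hold within both ages. The other 7 pairs had adjusted permutation p of at least 0.186. The median r over 22155 pairs of the 211 abundant miRNAs was 0.10. These pairs were not matched to the members for level, so this value is only a rough background.

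Among 204 abundant miRNAs outside the family and its neighbours, the 5 whose log2 FPKM followed the summed family most closely over 12 libraries were miR-30d-5p (r = 0.935), miR-126a-3p (0.855), miR-126b-5p (0.852), miR-26a-5p (0.851) and miR-26b-5p (0.846). That sum is mostly miR-16-5p (79.9% of the seed pool in young and 79.6% in aged muscle), so the ranking reflects miR-16-5p more than the other members. miR-126a-3p marks endothelial cells, and miR-126b-5p is annotated on the opposite strand of the same hairpin site. Their mean levels were almost equal, at 37595 and 37641 FPKM, and the pair is not independent. Strand use is not given, and whether both count the same reads was not tested. The r of miR-30d-5p was 0.974 in young and 0.408 in aged muscle, and 0.841 over all 12 after median-of-ratios scaling. For the other 4, r was 0.866 to 0.930 in young and 0.290 to 0.768 in aged muscle, and 0.579 to 0.700 after scaling. The median r with the summed family over all candidates, not matched for level, was 0.27. These likenesses were ranked from the data and carry no test.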

How the data were processed

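The labels give 6 young and 6 aged gastrocnemius samples, and the study's methods describe 6 mice of each age and 12 gastrocnemius samples, indexed and run in 1 lane. The deposited values are log2 FPKM of mature miRNAs (miRBase version 20). The authors trimmed adaptors, mapped reads to mm10 (BWA, default settings) and derived FPKM with a script of their own, while the submitters' processing notes name TopHat2. The BWA version, strand use and the treatment of reads matching several places are not given in the sources used here. A value of 0 stands for no read. No sample column was left unused.

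The log2 was undone, and rows of 1 mature miRNA were summed (77 miRNAs had several rows of 2035). Aged and young were compared in limma 3.58.1 (R 4.3.3) on log2(FPKM + 48.2), a pseudocount set to the median of the 12 libraries' lowest nonzero FPKM. Fold changes are on that scale, which understates changes of low miRNAs. The moderated test with a mean trend was two-sided, Benjamini-Hochberg adjusted over 482 miRNAs above 0 in at least 5 libraries, at 0.05. Arm ratios were fitted likewise over 131 hairpins. Pair ratios used exact permutation over all splits (NumPy 2.4.6). Correlation coefficients (SciPy 1.17.1) were tested with sampled permutations. Read numbers were recovered from FPKM steps and RefSeq lengths (22 bases assumed where none was found). Of 3219 values under 25 reads, 99.3% came within 0.15 of a whole number. Intervals on reads cover counting error only. No 2 libraries were identical. The code was tested on simulated data.

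The named miRNAs were the 5 members, the other arms, cluster neighbours, sharers of the seed, 2 cell-cycle lists, 4 lists of cell type markers and the 5 most alike abundant miRNAs. Members and lists were chosen with earlier results of these data known. Alternatives changed the pseudocount, filter, scaling, variance model, test, copies and libraries, added a replicate block or, after seeing the data, a depth term.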

Additional observations from a re-analysis of the deposited data

Results flagged for a closer look

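In 56 groups of 6 libraries examined with Dixon's test (each member, neighbour and pair ratio at each age), 12 values stood far from the other 5 of their group, where chance gives 2.8. All of these values came from aged replicate 6, aged replicate 5 or young replicate 3. The groups share libraries and members. Levels are log2(FPKM + 48.2). Aged replicate 6 was at 7.24 for miR-15b-5p (others 8.43 to 9.08) on 3 reads. The same library lay apart in the log2 ratios of miR-15a-5p to miR-15b-5p (5.55, others 3.22 to 3.97), miR-15b-5p to miR-16-5p (-9.72, others -8.15 to -7.45) and miR-15b-5p to miR-195a-5p (-6.68, others -4.72 to -4.03). It also did so without miR-15b-5p, at 3.04 for miR-16-5p to miR-195a-5p (others 3.41 to 3.62) and 0.71 for miR-195a-5p to miR-322-5p (others -0.11 to 0.15).

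Aged replicate 5, the shallowest library, was at 5.59 for miR-15b-3p on 0 reads (others 7.02 to 7.53), at 10.2 for miR-16-1-3p on 3 reads (others 7.24 to 8.29) and at -4.41 for the log2 ratio of miR-15a-5p to miR-16-5p (others -4.23 to -4.17). Young replicate 3 was at 5.59 on 0 reads for miR-16-1-3p (others 7.70 to 8.86), miR-503-3p (others 7.25 to 8.03) and miR-450a-5p (others 7.93 to 9.15). Whether depth accounts for these values was not tested.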

How the results depend on the processing

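No member was called in any of 124 fits under the alternatives (smallest limma adjusted p = 0.429), no pair ratio in 150 (smallest exact permutation adjusted p = 0.206) and no passenger arm or cluster neighbour in 291. Signs turned in 16, 3 and 13 of these. Fits of the 5p to 3p balance are not in these counts. No hairpin of a member was called in them either, and some signs turned, as given below. The log2 change of miR-16-5p became -0.070 with quantile normalization, -0.0060 with median-of-ratios scaling, -0.016 with voom on recovered reads and -0.0017 with the highest copy, and spanned -0.038 to 0.089 with 1 library left out. That of miR-322-5p became 0.014 without the 2 deepest libraries and 0.0045 with depth as a covariate (-0.10 to 0.086 with 1 left out), miR-15a-5p spanned -0.046 to 0.16 and miR-15b-5p -0.49 to -0.12, the latter without aged replicate 6. With 1 library left out, miR-15a-5p to miR-16-5p spanned -0.0082 to 0.093 and miR-16-5p to miR-322-5p -0.010 to 0.065. Voom, whose median over all miRNAs was -0.10 against 0.07, gave -0.26 for miR-16-1-3p, -0.40 for miR-195a-3p and -0.47 for miR-542-5p. miR-542-5p was at -0.093 with quantile normalization and -0.027 with depth, and miR-322-3p at 0.0091 with depth. The arm ratio of miR-195a changed by 0.13 with 10 times the pseudocount. Single libraries left out gave -0.23 to 0.42 for miR-16-1-3p, -0.11 to 0.56 for miR-195a-3p, -0.067 to 0.28 for miR-542-5p, -0.66 to 0.21 for miR-450b-5p, and arm ratio changes of -0.38 to 0.23 (miR-16), -0.44 to 0.39 (miR-195a) and -0.047 to 0.29 (miR-322). The causes were not tested.

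Of all miRNAs, 14 were called, against 6 with a pseudocount of 1 FPKM, 7 unfiltered, 8 with a filter on the mean (which removed miR-15b-5p), 8 with depth, 0 by exact permutation, and 6 to 15 with 1 library left out (6 without young replicate 3 or aged replicate 2, 3 or 4). The permutation count is limited by its smallest possible p of 0.00216. The 1 arm ratio called became 0, 3 and 2 with a pseudocount of 1 FPKM, 10 times the pseudocount and both arms in all libraries, and 0 to 4 with 1 library left out.

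Replicate numbers did not pair the libraries: deviations of same-numbered libraries correlated at -0.23 to 0.22, and 0 of 6 correlated best with their own number. The replicate block called 14 miRNAs and 2 arm ratios, with no member among them. miR-15b-5p had at most 3 reads in 4 of 12 libraries, which limits its values.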
